A study of Homo sapiens with 2 samples.

Results

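The ZNF genes are the largest family of human regulators that bind nucleic acid through zinc fingers, short folds in which a zinc ion holds a hairpin and a helix together. The set described here was every protein-coding gene whose symbol was ZNF followed by a digit and whose counts in both ribosome profiling libraries summed to at least 20, leaving out ZNF598. It held 108 of the 513 such genes with any count or none, and 108 of the 61554 rows of the count table. The members were chosen by their summed count, so their abundance is a description. The ratio between the libraries was not used to choose them.

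As background, most ZNF proteins carry arrays of C2H2 fingers that read DNA, and many carry a KRAB domain at the amino end. The KRAB domain recruits the corepressor TRIM28, which brings the histone methyltransferase SETDB1, HP1 proteins and deacetylases, and so silences transposable elements and some genes. Human chromosome 19 holds long tandem arrays of KRAB zinc finger genes that arose by duplication. Their messages are usually rare, and their coding sequences resemble one another, so reads from shared finger sequence can be hard to assign to 1 gene.

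Ribosome profiling sequences the mRNA pieces that ribosomes cover, so that a gene's counts follow both the amount of its mRNA and the ribosomes on it. The 2 libraries came from HEK293T cells, an established line from human embryonic kidney, of wild-type genotype in the labels. Both cultures received a plasmid, pCMV-Nes--chPylRSIPYE (TetRS), with a cassette given as 12*(U6-CM15CGA) for the tRNA, whose label carries the letters CGA, and both were kept with the amino acid TetBu. Only the library RiboW also received pEGFP-mCherry-T2A-EGFP-151TCG, a fluorescent reporter with a TCG codon in EGFP. RiboWo lacked it. Cells were collected after 30 h of expression and 1 min in 0.1 mg per mL cycloheximide. Each group was 1 library of transiently transfected cells, so no test across replicates exists, no p-value is given, and every difference is one between these libraries. The question the design poses is what differed in the presence of the reporter, as both cultures held the tRNA.

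The table held 2519301 counts with the reporter and 3151403 without it, of which 346240 and 307768 fell in protein-coding genes. The reporter itself had 271843 counts against 399, in the direction of the titles. The synthetase TetRS, whose plasmid was shared, had 30286 against 59723, a log2 ratio of -1.11 (-1.13 to -1.09), and the part of this difference in the values below was not tested. Of 8 genes fixed as markers of HEK293 cells, 7 had counts, 341 against 256 in sum, and CD24 had none. Markers of other cell types had few counts, and the sum of each list was lower with the reporter. CD14 at 3 against 0, LUM at 2 against 0 and LYZ at 1 against 0 went the other way. Leukocyte genes had 5 counts against 20, with PTPRC and CD3E at 0, and 5 fibroblast genes had 17 against 55. Hepatocyte and serum genes had 1 against 25, with TTR at 0, and 3 erythroid genes had 0 against 3, where 0 allows up to 3 counts. The part of these differences in the values of ZNF genes was not tested. In a culture, fewer cells with a message and less message per cell cannot be told apart.

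ZNF genes in the arrays of chromosome 19 reached the count minimum less often than the other ZNF genes. Of all 513 genes, 77 had no count, 328 had 1 to 19 and 108 had 20 or more, a share of 21.1% beside 31.5% of all 19994 coding genes. Chromosome 19 held 250 coding ZNF genes. Of these, 236 lay in 10 runs, here defined as at least 5 coding ZNF genes with neighbours at most 500 kb apart. Of these 236 genes, 17 became members, or 7.20%, against 91 of the 277 genes elsewhere, or 32.9%. The low share was that of the runs, since 6 of the 14 ZNF genes on chromosome 19 outside them were members. Per kb of listed length the median was 0.645 summed counts in the runs, 1.74 in the other ZNF genes and 1.16 in all coding genes. Median listed lengths were 5278 bases in the runs and 5483 elsewhere. The sources used here do not say whether reads with several matches were dropped, and their part in the low counts of the runs was not tested.

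**Figure D1:**
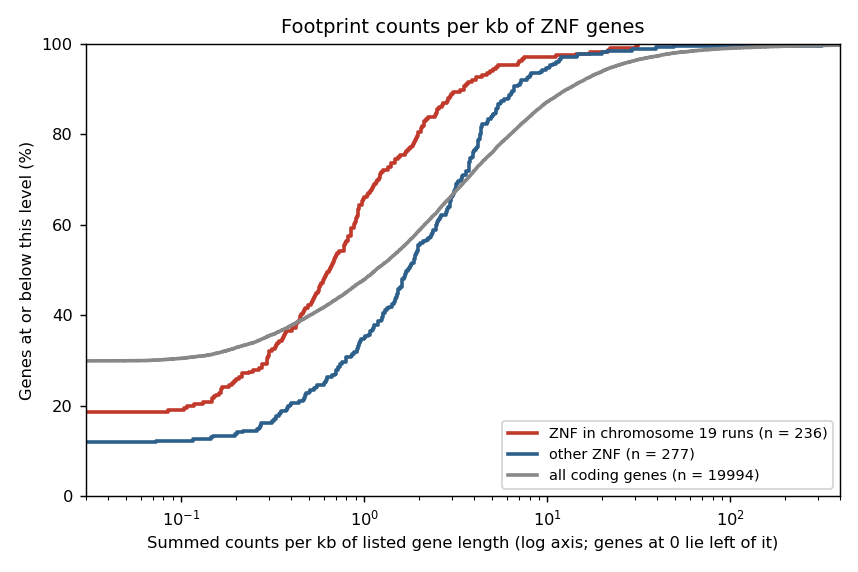
Cumulative share of genes (%) by summed counts per kb of listed gene length (log axis) for ZNF genes in chromosome 19 runs (n = 236), other ZNF genes (n = 277) and all coding genes (n = 19994), each line a set of genes. The line of the runs lies left of that of the other ZNF genes, with medians of 0.645 and 1.74 counts per kb.

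At the threshold, 8 genes had exactly 20 counts and lay inside, among them ZNF619 at 4 against 16 and ZNF213 at 16 against 4. Just outside, 10 genes had 19 counts, with log2 ratios between -1.62 and 2.28. Ratios on both sides of the threshold thus ranged widely in either direction. ZNF81, with 10 counts in each library, had a log2 ratio of -0.13 and an interval from -1.55 to 1.29.

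For 4 members the 250 bases before the RefSeq transcript start are shown. ZNF860 was the most counted member, ZNF317 the most counted with an interval below 0 in a chromosome 19 run, and ZNF428 and ZNF581 had the highest and the lowest ratio. The sequences are those of RefSeq for GRCh38.p14, given 5′ to 3′ on the gene's strand, in lower case. Capitals mark the GC box GGGCGG and the CCAAT box, searched on both strands (as CCGCCC and ATTGG on the other). ZNF860 lies on chromosome 3 (window 31981500 to 31981749, plus strand). ZNF317 lies on chromosome 19 (9140147 to 9140396, plus strand), as do ZNF428 (43619630 to 43619879, minus strand) and ZNF581 (55643399 to 55643648, plus strand).
ZNF860: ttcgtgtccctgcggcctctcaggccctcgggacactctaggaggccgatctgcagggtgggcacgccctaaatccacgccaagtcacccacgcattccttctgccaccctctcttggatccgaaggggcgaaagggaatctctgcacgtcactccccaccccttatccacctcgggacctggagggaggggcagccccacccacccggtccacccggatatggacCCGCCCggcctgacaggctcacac
ZNF317: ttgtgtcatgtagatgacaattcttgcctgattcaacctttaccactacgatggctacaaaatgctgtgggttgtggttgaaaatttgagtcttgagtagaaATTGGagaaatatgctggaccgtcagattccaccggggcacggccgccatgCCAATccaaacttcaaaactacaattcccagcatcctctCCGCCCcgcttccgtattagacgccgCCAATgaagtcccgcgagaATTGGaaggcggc
ZNF428: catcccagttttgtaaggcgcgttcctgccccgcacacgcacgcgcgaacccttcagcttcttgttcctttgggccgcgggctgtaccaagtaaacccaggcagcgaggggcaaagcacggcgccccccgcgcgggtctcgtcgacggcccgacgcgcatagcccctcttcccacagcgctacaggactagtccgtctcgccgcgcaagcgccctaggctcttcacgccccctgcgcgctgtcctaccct
ZNF581: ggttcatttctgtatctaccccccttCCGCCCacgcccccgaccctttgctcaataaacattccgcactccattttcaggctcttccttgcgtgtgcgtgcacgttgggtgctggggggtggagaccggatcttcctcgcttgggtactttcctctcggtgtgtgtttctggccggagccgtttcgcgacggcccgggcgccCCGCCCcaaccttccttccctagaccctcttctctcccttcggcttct
ZNF860 held 1 GC box and 15 CG dinucleotides, ZNF317 held 1 GC box and 4 CCAAT boxes, and ZNF428 held neither box but 30 CG dinucleotides. ZNF581 held 2 GC boxes. Unlike the other windows shown, its window lies inside the listed span of the gene (55635459 to 55645623). The first of its boxes falls within the listed span of ZNF580 (55635016 to 55643470), on the same strand. A match is a string of letters in a window, not a site.

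RefSeq gave such a window for 89 of the 108 members. The GC box was in 64.0% of them and in 56.8% of the windows of 15229 coding genes, and the CCAAT box in 27.0% and 34.8%. TATAAA, read on both strands, was in 4.49% of the members' windows against 9.16%. Among the 342 ZNF genes under the count minimum that had a window, 52.0% held the CCAAT box. Members in chromosome 19 runs held the GC box in 5 of 16 windows and the other members in 52 of 73. These shares are descriptions of small sets.

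Pooled over the 108 members, the libraries held 2663 counts with the reporter and 2632 without it. That was 0.769% of all coding counts (exact Clopper-Pearson interval at 95%, 0.740 to 0.799%) against 0.855% (0.823 to 0.888%). The log2 ratio to all other coding counts was -0.15 (-0.23 to -0.08), with the reporter over without it. Intervals cover counting error only, because each group was 1 library and differences between cultures are not in them. Reads copied by PCR are not independent molecules, so even the counting error may be understated. A large part of this difference lay in 1 gene. Without ZNF860, the other 107 members had 2187 counts against 2041, a log2 ratio of -0.07 (-0.16 to 0.02). Over all 513 genes, members or not, the counts were 3790 and 3754 and the log2 ratio was -0.16 (-0.22 to -0.09).

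Members overlapping other annotated genes weighed on this value too. Of the 108, 39 overlapped no other gene. Those 39 had 1045 counts against 928, and relative to other coding counts their log2 ratio was 0.0014 (-0.13 to 0.13). ZNF860 is not among them, since its span overlaps that of OSBPL10 on the other strand, which had 1 count against 0. Leaving out the 11 members that hold a small RNA gene in their span gave -0.15.

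Ratios of single genes are given below as log2 ratios of counts scaled by the TMM method of edgeR, each with its exact interval. Calls of higher or lower needed both a 2-fold ratio and an interval without 0. The members had a median of -0.08 (quartiles -0.72 and 0.43), beside 0.06 (-0.42 and 0.50) over all 6296 coding genes with at least 20 counts. Of the members, 46 lay above that coding median and 62 below it, where 49.9% and 49.8% of coding genes did. Intervals lay above 0 for 10 members and below 0 for 11, where 12.4% and 9.94% of coding genes had such an interval. Scaling by total counts moved all values up by 0.46, so the median of the members became 0.37 and that of coding genes 0.52.

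The rule counted 9 of 108 members as higher, or 8.33%, where 6.69% of all coding genes were, and 7 as lower, or 6.48%, where 6.54% were. The members' counts thus lay near the background in both directions. For the other 92 members either the fold was under 2 or the interval held 0. The split depended on the scaling. DESeq2 size factors gave 12 and 5, summed coding counts 6 and 9, and total counts 19 and 2. Coding genes shifted alike. With DESeq2 size factors 11.1% of members were higher and 4.63% lower, beside 8.01% and 5.53% of coding genes. Under summed coding counts the shares were 5.56% and 8.33%, beside 5.99% and 7.27%. Under total counts they were 17.6% and 1.85%, beside 20.0% and 1.99%.

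**Figure D2:**
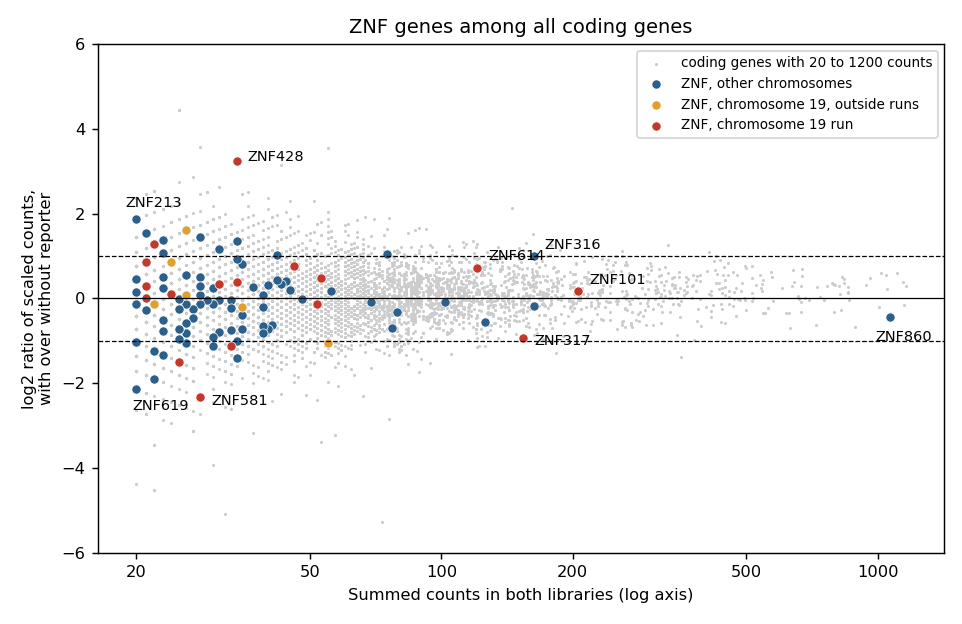
Log2 ratio of TMM-scaled counts, with over without the reporter, against the summed counts of both libraries (log axis). Coloured points are the 108 ZNF members by location and grey points other coding genes with up to 1200 counts and a count in both libraries; dashed lines mark a 2-fold ratio. Among members ZNF428 is highest at 3.24, ZNF581 is lowest at -2.33, and ZNF860 stands alone at 1067 counts.

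The ratios of the members spread about as widely as those of coding genes at 20 to 39 counts, less widely at 40 to 99 and more widely at 100 or more. Over all members the SD was 0.85, where counting error alone gives 0.54. For coding genes it was 0.75 against 0.46. A 2-fold ratio in either direction, whatever its interval, was seen for 29 members, or 26.9% beside 17.3% of coding genes. Among the 81 members with 20 to 39 counts there were 25, or 30.9% beside 26.8% of coding genes in that band, and the gap to coding genes was thus smaller at like counts. The SD in that band was 0.92, beside 0.91 among 2726 coding genes. Among the 19 members with 40 to 99 counts it was 0.57, beside 0.66 in 2510 coding genes. The 8 members with at least 100 counts had an SD of 0.65, beside 0.46 in 1015 coding genes with 100 to 1067 counts. Counting error in those bands was 0.59, 0.41 and 0.23 for members, so the observed spread was above counting error in each band. Across genes, which are not independent replicates, log2 counts of the libraries correlated with a Pearson r of 0.61 over the 108 members, 0.86 over the 27 with at least 40 counts and 0.80 over coding genes. Spearman's rho of the counts was lower, at 0.31, 0.70 and 0.73. All these sets were chosen by the sum of the counts correlated. Sums of 20 to 39 made up 81 of the 108 members but 2726 of the 6296 coding genes. The correlations thus cover unlike ranges of counts and are not compared. The points share the same libraries, and these values are descriptions.

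ZNF860 was the most counted member by a wide margin (ENSG00000197385, chromosome 3, 31981750 to 31991723, plus strand). With the reporter 476 counts fell in it, and 591 without, 20.2% of all counts of the members. Its share of the members' counts was 17.9% (16.4 to 19.4%) with the reporter and 22.5% (20.9 to 24.1%) without it. The log2 ratio was -0.44 (-0.62 to -0.27), short of the 2-fold rule, and 0.01 under total counts. In deposited RPKM, a level per length, it stood at 49.0 with the reporter and 63.3 without it. The next member, ZNF703, was at 8.40 and 9.06. GAPDH, an abundant glycolytic enzyme, was at 36.2 and 35.5, and ACTB at 15.2 and 13.7. ZNF860 ranked 84th and 55th by RPKM among the 6296 coding genes. The counts do not show where in ZNF860 its reads lie or whether they also match elsewhere. Whether all of them stem from its message was not tested. The median member was at 0.834 in both libraries, with the lowest at 0.164 and 0.0958.

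ZNF703 and ZNF503 encode corepressors of the NET family, which act in development and in breast cancer. ZNF703 had 80 counts against 83, a log2 ratio of -0.19 (-0.65 to 0.28). ZNF503 on chromosome 10 (75397830 to 75401764) had 54 against 72, a ratio of -0.55 (-1.08 to -0.02). Together their 134 counts against 155 lay at -0.38 (-0.72 to -0.04) relative to other coding counts. The pair was grouped by role after its values were seen, so its sum supports nothing. Neither reached the 2-fold rule. In RPKM ZNF503 stood at 5.86 and 8.13.

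Among the 12 most counted members, ZNF316 and ZNF664 were the ones counted as higher. ZNF316 (ENSG00000205903, chromosome 7, 6637318 to 6658279) had 112 counts with the reporter and 51 in its absence, a ratio of 1.00 (0.51 to 1.51). It overlaps no other listed gene. ZNF664 on chromosome 12 had 52 counts against 23, a ratio of 1.04 (0.31 to 1.82). It overlaps 4 other listed genes, of which CCDC92 had 12 counts against 9. ZNF316 sat at the threshold, and scaling by summed coding counts ended its call.

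No member among these 12 was counted as lower. ZNF317 came closest, with 56 counts against 98 and a ratio of -0.94 (-1.44 to -0.45). ZNF24, a SCAN-domain protein, had 31 against 46 (-0.70, -1.41 to -0.01). ZNF614 went the other way at 78 against 43 (0.73, 0.17 to 1.30), while ZNF101 had 114 against 92 (0.18, -0.23 to 0.59). ZNF638, ZNF326 and ZNF768 had 52 against 50, 37 against 42, and 35 against 34. Their intervals all held 0.

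**Figure D3:**
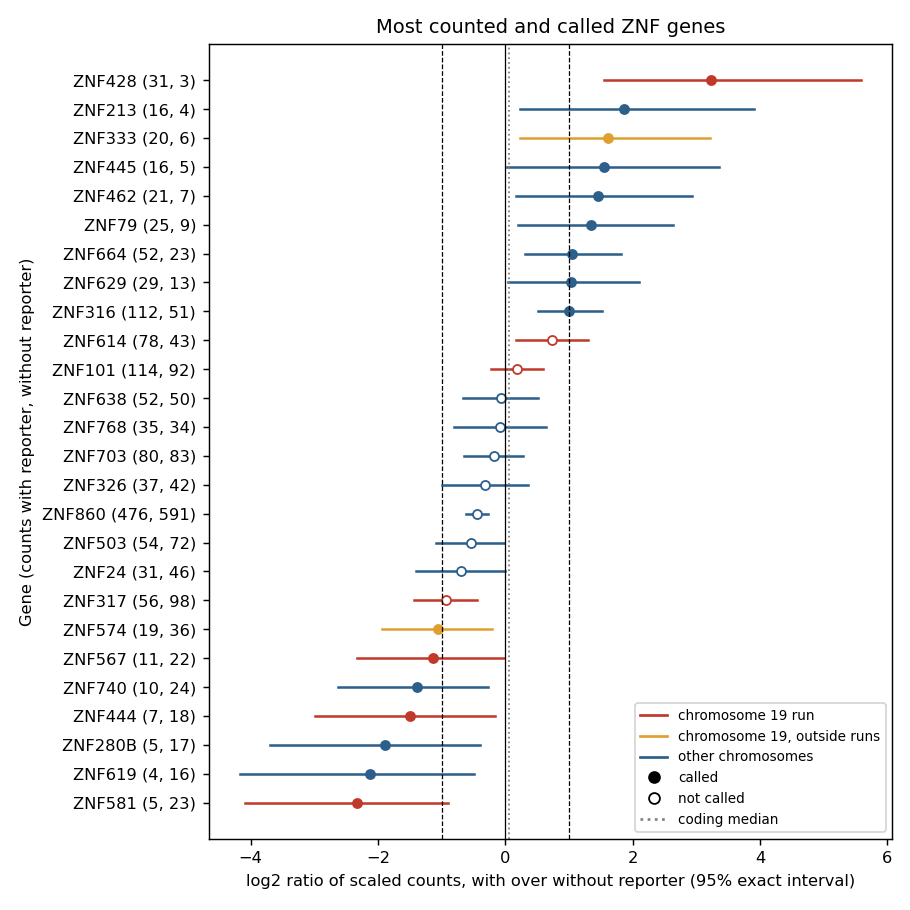
Log2 ratio of TMM-scaled counts with exact 95% intervals (lines) for the 12 most counted members and all members counted as higher or lower (filled points), coloured by location; each label gives the counts with and without the reporter. Dashed lines mark a 2-fold ratio and the dotted line the coding median of 0.06; the interval of ZNF860, from -0.62 to -0.27, is the narrowest.

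The other members counted as higher had at most 42 counts. ZNF428 had the highest ratio of all (ENSG00000131116, chromosome 19, 43607224 to 43619629, minus strand). It had 31 counts with the reporter and 3 in its absence, a ratio of 3.24 (1.56 to 5.59). Its span overlaps that of SRRM5 on the other strand, which had 7 counts against 1. If strand was not used in the counting, on which the sources used here are silent, reads from shared positions of the pair cannot be told apart. The overlap is one of whole spans, and whether exons overlap was not tested. ZNF576, the neighbour that SRRM5 also overlaps, had 13 counts against 11, a ratio of 0.11 (-1.17 to 1.41).

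ZNF213 (chromosome 16) had 16 counts against 4 and a ratio of 1.87 (0.24 to 3.91). Its antisense gene ZNF213-AS1 had 7 against 10. ZNF333 (chromosome 19, 14689801 to 14733746, outside the runs) had 20 against 6, a ratio of 1.60 (0.24 to 3.21). ZNF445, which takes part in keeping genomic imprints, had 16 against 5 (1.55, 0.03 to 3.35). ZNF462, a regulator in development, had 21 against 7 (1.45, 0.16 to 2.93). ZNF79 had 25 against 9 (1.34, 0.19 to 2.63) and ZNF629 had 29 against 13 (1.03, 0.04 to 2.09). The lower bounds of ZNF445 and ZNF629 lay close to 0, and both lost the call with summed coding counts as the scale.

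Members counted as lower had between 20 and 55 counts. ZNF581 had the lowest ratio (ENSG00000171425, chromosome 19, 55635459 to 55645623, plus strand). It had 5 counts with the reporter and 23 in its absence, a ratio of -2.33 (-4.09 to -0.91). It overlaps CCDC106 and ZNF580 on the same strand, at 5 against 4 and 6 against 2. Neither neighbour had fewer counts with the reporter than without it.

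ZNF619 on chromosome 3 had 4 counts against 16, a ratio of -2.13 (-4.17 to -0.50). ZNF280B on chromosome 22 had 5 against 17 (-1.90, -3.69 to -0.40). ZNF444, a SCAN-domain protein, had 7 against 18 (-1.49, -3.00 to -0.17). ZNF740 had 10 against 24 (-1.40, -2.62 to -0.28), ZNF567 had 11 against 22 (-1.13, -2.32 to -0.03) and ZNF574 had 19 against 36 (-1.05, -1.94 to -0.21). ZNF567 and ZNF574 lost the call under DESeq2 size factors. Of the 7 genes, 6 overlap another listed gene, as do 6 of the 9 counted as higher and 69 of all 108 members.

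Some members were grouped by a known role after their values were seen, so the groups support nothing. Of 5 genes of RNA and ribosome biology, all lay below the coding median, with 100 counts against 113 in sum. ZNF622, a maturation factor of the large ribosomal subunit, had 12 against 22 (-1.01, -2.16 to 0.07). ZNF326, a splicing and elongation factor, was at -0.32, and the RNA-binding protein ZNF106 had 25 against 23 (-0.01). ZNF207, which acts at kinetochores with BUB3, and ZNF473, a factor of histone pre-mRNA processing, had equal counts of 15 and 11 (-0.13 each). Each of the 5 intervals held 0.

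Genes of silencing and imprinting varied more, with 117 counts against 112 in sum. ZNF274, which recruits SETDB1 to the 3′ ends of other zinc finger genes, had 20 against 14 (0.38, -0.68 to 1.48). ZNF638, which directs the HUSH complex to retroviral DNA, was at -0.08 (-0.66 to 0.51). ZNF644, a partner of the methyltransferases EHMT1 and EHMT2, had 17 against 24 (-0.63, -1.62 to 0.33). The SUMO ligase ZNF451 had 12 against 19 (-0.80, -1.97 to 0.32). ZNF445 was thus the only one of these 5 past the rule.

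The ZMYND8 partners ZNF592, ZNF687 and ZNF532 had 14 against 21, 16 against 12, and 7 against 16. Their ratios were -0.72, 0.28 and -1.32, and all intervals held 0. Of 6 sequence-specific regulators, ZNF217 had 19 against 20 (-0.21), ZNF281 16 against 19 (-0.38), ZNF384 16 against 24 (-0.72) and ZNF521 13 against 13 (-0.13). ZNF148 had 21 against 18 (0.09). With ZNF24, the 6 had 116 counts against 140, or -0.44 (-0.81 to -0.08) relative to other coding counts. None was past the 2-fold rule. A further 61 members, with 20 to 56 counts each, had ratios between -1.23 and 1.37, and the intervals of all 61 held 0.

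Members in the chromosome 19 runs had 494 counts against 432, and the other 91 members had 2169 and 2200. The pooled log2 ratio of the first set over the second was 0.21 (0.01 to 0.42, conditional exact interval). The value moved with single genes. Without ZNF860 the other members had 1693 counts against 1609, and the value was 0.12 (-0.09 to 0.33). Without ZNF428 it was 0.13 (-0.08 to 0.34), and without ZNF581 it was 0.28 (0.07 to 0.49). Over all 236 genes of the runs and the 277 others, members or not, the counts were 980 against 945 and 2810 against 2809, and the value was 0.05 (-0.10 to 0.20). Counting all 23 chromosome 19 members in the first set gave 0.20 (0.01 to 0.40). The interval thus excluded 0 narrowly for the members and held 0 without ZNF860, without ZNF428 or over all ZNF genes. It also held 0 at count minima of 10 (0.09, -0.08 to 0.27), 50 (0.23, -0.04 to 0.51) and 100 (0.22, -0.08 to 0.52). The same was seen without members holding a small RNA gene (0.20, -0.01 to 0.41) and without members overlapping another gene (0.03, -0.26 to 0.31). At the other neighbour distances tried for the runs, the interval still excluded 0.

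By medians, the 17 members in the runs lay at 0.28 and the 91 others at -0.13, a gap of 0.42. At a minimum of 10 counts the gap was 0.14. Relative to other coding counts the runs were at 0.02 (-0.17 to 0.21) and the other members at -0.19 (-0.28 to -0.11), or -0.10 (-0.20 to 0.00) without ZNF860. The 6 members on chromosome 19 outside the runs had 97 counts against 91.

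The runs held the highest and the lowest ratio among the 108 members. Their 17 members had an SD of 1.17, where counting error gives 0.54, and the other 91 had 0.78 beside the same counting error. All coding genes with at least 20 counts had an SD of 0.75, and those with 20 to 39 counts 0.91. Of the 17, ZNF428 was counted as higher and ZNF581, ZNF444 and ZNF567 as lower. The shares over all coding genes were 6.69% and 6.54%, and a set of 17 is too small for its shares to be read. Without ZNF428 and ZNF581, chosen after their values were seen, the SD in the runs was 0.75.

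The run from ZNF628 to ZNF835 (55476617 to 56671783) was the one whose interval excluded 0 when all its ZNF genes were pooled, members or not. Its 16 genes had 47 counts with the reporter against 75, and relative to other coding counts their log2 ratio was -0.84 (-1.40 to -0.30). Both of its members, ZNF581 and ZNF444, were counted as lower. The other 14 genes had 35 counts against 34, or -0.13 (-0.85 to 0.60), so the value of the run rested on the pair. Pooling members alone, intervals for counting error excluded 0 in 4 of the 7 runs with a member. Of single coding genes, 12.4% had an interval above 0 and 9.94% below it under TMM scaling. Like values for groups of coding genes were not computed, so the 4 runs are a description. The pair ZNF581 and ZNF444 had 12 counts against 41 (-1.94, -3.01 to -0.99). Members of the run from ZNF575 to ZNF180, ZNF428 and ZNF576, had 44 against 14 (1.48, 0.59 to 2.46), and ZNF614 alone stood for its run at 0.69 (0.13 to 1.26). The 5 members of the run from ZNF414 to ZNF846 had 131 against 149 (-0.36, -0.71 to -0.01).

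The run from ZNF414 to ZNF846 (8509678 to 9793180, 14 genes) had 5 members and 151 counts against 168, a ratio of -0.32 (-0.65 to 0.00). Its members went both ways, from ZNF317 at -0.94 to ZNF266 at 0.87, with 14 counts against 7. The longest run by span, from ZNF101 to ZNF254 (19668796 to 24129968), held 37 genes, of which 13 had no count. Its 201 counts against 175 gave 0.03 (-0.27 to 0.33). ZNF101 alone made 114 and 92 of them, ZNF253 had 26 in each library and ZNF714 had 12 against 9.

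In the run from ZNF565 to ZNF573 (36182276 to 37817300, 27 genes) the counts were 129 against 128 (-0.16, -0.52 to 0.21). Its members ZNF146 and ZNF829 lay at 0.77 and 1.28, with 30 against 16 and 16 against 6 counts, and ZNF567 at -1.13. The run from ZNF575 to ZNF180 (43525497 to 44500524, 23 genes), which holds ZNF428, had 105 against 83 (0.17, -0.26 to 0.60). The run from ZNF175 to ZNF331 (51571283 to 53580269) held 40 genes and 1 member, ZNF614. Its counts were 167 against 131 (0.18, -0.16 to 0.52). The last run, from ZNF264 to ZNF446 (57191500 to 58481230), held 43 genes and 1 member, ZNF274, with 127 counts against 126 (-0.16, -0.53 to 0.21).

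No member came from the remaining 3 runs. The run from ZNF653 to ZNF791 held 26 genes, of which 11 had no count, and 36 counts against 38. Those from ZNF554 to ZNF77 and from ZNF302 to ZNF792 held 5 genes each, with 11 against 11 and 6 against 10 counts.

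**Figure D4:**
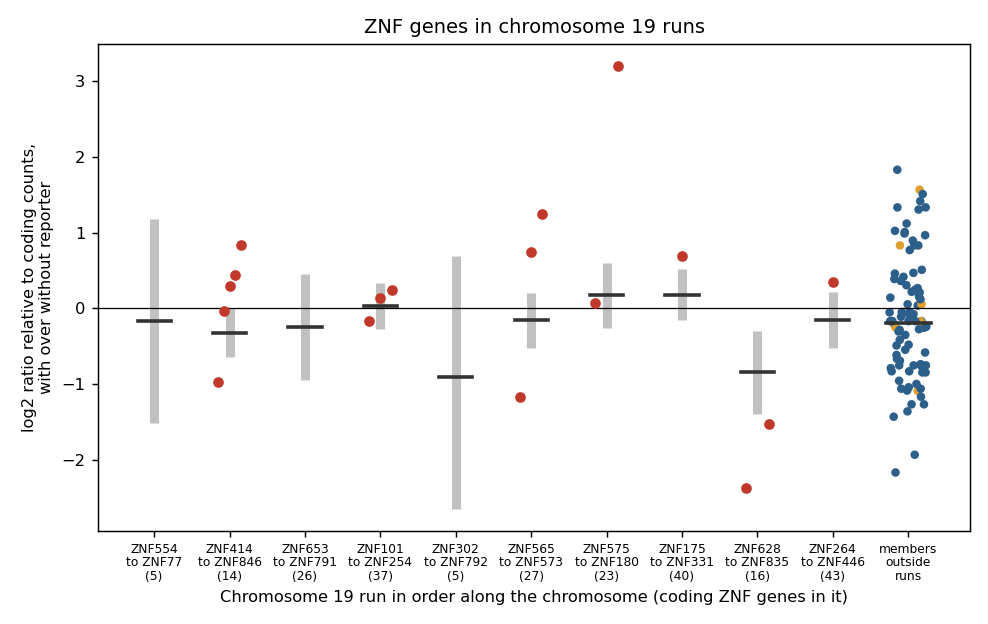
Log2 ratio relative to coding counts, with over without the reporter, by chromosome 19 run in order along the chromosome, with the number of coding ZNF genes in brackets. Points are members, dark bars the pooled ratio of all ZNF genes in the run and grey bars its exact 95% interval; the last column holds the 91 members elsewhere, on any chromosome, with their pooled ratio and no interval. Of the grey bars, only that of the run from ZNF628 to ZNF835, at -1.40 to -0.30, lies clear of 0.

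Elsewhere, members lay on 19 other chromosomes. Those named here are the ones whose interval, for counting error only, excluded 0. On all the rest the interval held 0. Like values of other coding genes by chromosome are not given, so these are descriptions. On chromosome 7 the 12 members had 270 counts against 180, a ratio of 0.42 (0.14 to 0.70) to other coding counts, with ZNF316 as the most counted. On chromosome 9 the 4 members had 73 against 42 (0.63, 0.06 to 1.21). Chromosome 3, with ZNF860, was at -0.42 (-0.59 to -0.26). Chromosomes 6, 10 and 18 were lower too, at -0.83 (-1.46 to -0.22) over 4 members, -0.59 (-1.12 to -0.06) for ZNF503 alone and -0.49 (-0.90 to -0.07) over 6 members.

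The most similar families by name were smaller, and not all of C2H2 type, since ZFP36L1 and ZFP36L2 encode RNA-binding proteins with CCCH fingers. Coding genes named ZFP, ZSCAN, ZKSCAN or ZBTB and a digit gave 23 genes with at least 20 counts, 399 against 415 in sum. Their log2 ratio to other coding counts was -0.23 (-0.43 to -0.03), and their median was -0.26 beside -0.08 for the ZNF members. The rule counted 1 as higher, or 4.35% beside 6.69% of all coding genes, and 2 as lower, or 8.70% beside 6.54%. The higher one was ZBTB10 at 41 against 11 (1.77, 0.78 to 2.88). The lower ones were ZSCAN12 at 5 against 17 (-1.90, -3.69 to -0.40) and ZFP62 at 7 against 19 (-1.57, -3.07 to -0.26).

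Of 39 listed genes of chromatin silencing, called partners here whether or not they act with KRAB proteins, 35 had at least 20 counts. As a list they had 1710 counts against 1314, a log2 ratio to other coding counts of 0.21 (0.11 to 0.32). The ZNF members were at -0.15, or -0.07 (-0.16 to 0.02) without ZNF860. In bands of 20 to 39, 40 to 99 and 100 to 1067 counts, coding genes were at -0.05, -0.003 and 0.13 on this measure. The medians differed less, at 0.12 for the partners, 0.06 for coding genes and -0.08 for the ZNF members. The rule counted 4 partners as higher, or 11.4% beside the 6.69% of all coding genes, and 0 as lower beside 6.54%. Under total counts 8 partners, or 22.9%, were higher, near the 20.0% of coding genes, and 0 lower beside 1.99%. DESeq2 size factors gave 5, or 14.3% beside 8.01%, and summed coding counts 4, or 11.4% beside 5.99%. None was lower under these, beside 5.53% and 7.27% of coding genes.

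TRIM28, the corepressor that KRAB domains bind, had 129 counts against 102, a ratio of 0.21 (-0.18 to 0.60). SETDB1, the H3K9 methyltransferase that it recruits, was counted as higher, with 43 against 19 (1.05, 0.24 to 1.91). The methyltransferase EHMT1 had the highest ratio among the 35 partners with at least 20 counts, with 71 against 21 (1.63, 0.91 to 2.40). The deacetylase HDAC2 had 75 against 29 (1.24, 0.60 to 1.91) and the demethylase KDM1A 58 against 23 (1.20, 0.48 to 1.97). HDAC1, by contrast, was at 0.35 (-0.05 to 0.75), with 127 against 91.

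UHRF1 and RBBP7 had intervals above 0 without reaching 2-fold, at 0.83 (0.35 to 1.32) and 0.56 (0.09 to 1.04). DNMT1 was at -0.04, GATAD2A at 0.02, TASOR of the HUSH complex at 0.10, MTA2 at 0.27, RBBP4 at -0.22 and MTA1 at -0.47, and the intervals of all 6 held 0. The HP1 gene CBX5 was lowest of the 35, with 8 against 14 (-0.94, -2.40 to 0.41). Among the 4 listed genes under the count minimum, MPHOSPH8 of the HUSH complex had 13 against 3 (1.98, 0.12 to 4.44) and the DNA methyltransferase DNMT3A 5 against 12 (-1.40, -3.25 to 0.21).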

How the data were processed

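The deposited table held whole-number counts of the authors for 61554 rows, with 1 column for each of the 2 libraries. Per the submitters' processing notes, TopHat2 2.0.12 and HTSeq 0.9.1 were used and the builds GRCh37 and hg19 are listed. Coordinates, however, followed GRCh38, as the loci of all 108 members overlapped their RefSeq GRCh38.p14 loci. The sources used here do not give strand handling. A second deposited table held RPKM values of the authors, which equalled counts over listed length and library sizes of 2873483 and 2762965.

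Counts were scaled with TMM over all rows in edgeR 4.0.16 (R 4.3.3), with DESeq2 1.42.0 size factors, total counts, summed coding counts and RPKM plus 0.1 as alternatives. Intervals are exact Clopper-Pearson at 95%, or conditional exact for a pair of ZNF sets. For SDs, 0.5 was added to each count. Steps ran in Python 3.11.15 with scipy 1.17.1 and were tested on simulated counts. The members and lists were chosen with earlier results of these data known. Named genes were the 12 most counted, the 10 highest and 10 lowest by interval bound, all called members, and the most counted, highest and lowest of each run. For partners, the rule took all with at least 100 counts, the highest and the lowest. SETDB1, KDM1A, ZBTB10, ZSCAN12, ZFP62 and the members listed by role were added after their values were seen, as were MPHOSPH8 and DNMT3A. Protein sequences were not used here, so the planned comparison by KRAB domain and number of fingers was not run.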

Additional observations from a re-analysis of the deposited data

How the results depend on the processing

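With 1 library per group, no replicate could be left out. No paired analysis was possible because each group had a single library. The pooled ZNF ratio of -0.15 was -0.071 without the most counted member and -0.25 at a minimum of 100 counts. Without members overlapping another gene it was 0.0014, with ZNF860 and 68 others left out. The same omission gave a median of 0.0053, a median minus the coding median of -0.055, an SD of 0.73, and 3 genes higher and 1 lower. Total counts gave a median of 0.37, 19 higher and 2 lower (17.6% and 1.85%, beside 20.0% and 1.99% of coding genes), ZNF860 at 0.011 and ZNF101 at 0.63. A minimum of 10 gave 14 lower, an SD of 1.01 and a gap between runs and other members of 0.14. A minimum of 50 gave 2 higher, 1 lower and an SD of 0.63. A minimum of 100, with 8 genes left, gave 1 higher, 0 lower, an SD of 0.65 and a median minus the coding median of -0.24. A 3-fold threshold gave 3 and 3, the fold without the interval 14 and 15, and calls relative to the coding median 5 higher and 10 lower. In this paragraph shares of coding genes stand beside the calls under total counts only. The other counts of calls here describe the members alone. Chosen after the data were seen, leaving out ZNF428 and ZNF581 gave an SD of 0.75 in the runs, and leaving out ZNF581 and ZNF444 a ratio of -0.13 in their run. The pooled gap of 0.21 between runs and other members lay between -0.02 and 0.28 over all alternatives. The lowest value was that over all ZNF genes but ZNF860, members or not. At 20 to 39 counts, which holds 81 of the 108 members, counting error alone gave an SD of 0.59.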

Other observations

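Outside chromosome 19 the same definition of a run found 11 further runs. The run from ZNF48 to ZNF267 on chromosome 16 (30378106 to 31917357) held 13 coding ZNF genes, of which 7 were members, a larger part than in any chromosome 19 run. Its members ZNF48, ZNF771, ZNF768, ZNF764, ZNF689, ZNF629 and ZNF646 had 137 counts against 132, a log2 ratio to other coding counts of -0.12 (-0.47 to 0.24). On chromosome 7 the run from ZNF786 to ZNF862 (149069641 to 149867479) held 10 genes and 5 members, with 80 against 66 (0.11, -0.38 to 0.60).

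Rows with a ZNF symbol that do not code for protein held counts too. The 97 ZNF pseudogenes had 63 counts against 73, spread over 18 rows, with ZNF271P highest at 11 against 20. The 64 ZNF long noncoding rows had 101 against 116 over 34 rows. The most counted of these, ZNF346-IT1, had 26 against 27. ZNF516-AS1 had 10 against 14, near the 9 against 16 of ZNF516 itself, whose span it shares. The library sizes behind the deposited RPKM values stood in a ratio of 1.04, as did the DESeq2 size factors, against 1.10 for TMM and 0.799 for total counts.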
